A study of Mus musculus with 6 samples.

Results

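Complement is a cascade of plasma and cell-surface proteins that marks microbes and damaged cells for removal. The classical branch starts when C1q binds a target and activates its proteases C1r and C1s, which cleave C4 and C2, and the alternative branch uses factor B to amplify the cleavage of C3, where the branches meet. Most circulating complement comes from liver, but fibroblasts also make several components, together with the inhibitors that keep the cascade off host cells.

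The 8 complement genes described here were chosen by name among 21837 genes of the deposited RNA-seq table: C1ra and C1s, C4b, C3, Cfb, Serping1, Cd55 and Cd59a. All 8 were found, and where the table held 2 rows for a gene (C1s, Cfb and Cd59a) the row with the higher mean was used. The cells were primary wild-type (WT) mouse embryonic fibroblasts (MEFs) of the mixed strain C57BL/6x 129, taken from 13.5-day littermate embryos and used after 4 passages. They were left untreated or kept in 20 ng/mL TNF-alpha, an inflammatory cytokine that activates the transcription factor NF-κB, for 1.5, 6 or 24 hr. All groups share the wild-type genotype and the culture, and each time has 1 poly-A RNA library. So no comparison between times has a replicate, no test was possible, and every difference below is between individual libraries. Untreated cells also gave 1 chromatin library for H3K4me3, the histone mark of active start sites, with 1 input library.

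The promoter windows, from 250 bases before to 50 after the RefSeq start, are shown because the H3K4me3 results below separate Cd55 and Cd59a from the other genes, and because C3 carries several matches to one motif. The table of mouse promoters (RefSeq, build GRCm38.p6) matched 5 of the 8 genes, and C4b, Cfb and Serping1 are named only. Capitals mark matches, on either strand, to 4 motifs: the 10-base NF-κB consensus, the interferon-stimulated response element (ISRE), the C/EBP motif TTNNGNAA and the GAS motif TTCNNNGAA, the site class bound by STAT factors. The C1s window (RefSeq symbol C1s1) is the first of 2 that overlap. The windows lie at chr17:57228087-57228386 (minus strand, C3), chr6:124542310-124542609 (minus, C1s), chr6:124512371-124512670 (plus, C1ra), chr1:130462695-130462994 (minus, Cd55) and chr2:104095551-104095850 (plus, Cd59a).
C3: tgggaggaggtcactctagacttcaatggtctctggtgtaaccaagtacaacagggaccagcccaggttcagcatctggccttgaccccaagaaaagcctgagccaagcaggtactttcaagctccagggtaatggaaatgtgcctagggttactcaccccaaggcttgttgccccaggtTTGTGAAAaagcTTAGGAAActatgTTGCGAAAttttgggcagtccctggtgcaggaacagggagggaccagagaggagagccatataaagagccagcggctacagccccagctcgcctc
C1s: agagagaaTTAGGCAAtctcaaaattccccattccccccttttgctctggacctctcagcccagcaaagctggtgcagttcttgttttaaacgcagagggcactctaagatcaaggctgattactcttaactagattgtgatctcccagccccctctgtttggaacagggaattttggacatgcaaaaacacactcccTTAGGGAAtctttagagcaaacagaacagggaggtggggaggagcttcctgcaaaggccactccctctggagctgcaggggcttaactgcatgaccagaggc
C1ra: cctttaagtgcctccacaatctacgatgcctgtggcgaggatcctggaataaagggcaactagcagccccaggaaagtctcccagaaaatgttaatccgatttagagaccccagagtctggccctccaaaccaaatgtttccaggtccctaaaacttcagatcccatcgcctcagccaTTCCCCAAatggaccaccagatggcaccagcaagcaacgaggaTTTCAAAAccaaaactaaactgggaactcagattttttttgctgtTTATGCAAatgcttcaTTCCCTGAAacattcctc
Cd55: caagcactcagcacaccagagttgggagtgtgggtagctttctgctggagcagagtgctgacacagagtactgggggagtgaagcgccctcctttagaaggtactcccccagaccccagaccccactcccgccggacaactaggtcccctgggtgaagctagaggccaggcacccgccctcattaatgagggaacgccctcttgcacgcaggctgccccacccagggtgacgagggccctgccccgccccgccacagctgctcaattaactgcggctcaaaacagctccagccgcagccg
Cd59a: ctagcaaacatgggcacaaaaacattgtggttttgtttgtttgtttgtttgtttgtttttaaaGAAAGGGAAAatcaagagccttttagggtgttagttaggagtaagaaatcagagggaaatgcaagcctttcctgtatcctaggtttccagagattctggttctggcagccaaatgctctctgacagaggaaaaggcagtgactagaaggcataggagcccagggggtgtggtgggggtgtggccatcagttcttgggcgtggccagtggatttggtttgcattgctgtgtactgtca

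C3 held 3 C/EBP matches, which began 70, 58 and 45 bases before the start. C1ra held 3 C/EBP matches and 1 GAS match, C1s held 2 C/EBP matches, and Cd59a held 1 ISRE match. Cd55 held none of the 4 motifs, and none of the printed windows held the NF-κB consensus letters. Among all 32544 promoters of the table, 40.7% held a C/EBP match, 8.49% the NF-κB consensus, 8.33% a GAS match and 3.45% an ISRE match. The matches are letters only and say nothing of binding. The Cd55 window was the richest in CpG of the printed windows, with 12 CpG pairs, against 5 in C1ra, 3 in C3 and 1 each in C1s and Cd59a, and the median promoter of the table held 7.

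A level here is the mean of the R1 and R2 columns that the authors deposited per library, in RPKM units (per kilobase of transcript and per total) on a scale of their own. The low values move in whole steps of read coverage, so the reads behind each level could be recovered, and intervals are exact 95% counting intervals that cover counting error only. R1 and R2 agreed more closely than independent counts would and were not used as replicates. A change is the log2 ratio to the untreated library, less its median over the 6251 genes whose mean level passed a floor of 100 units. That median was 0.43, -0.74 and 0.09 at 1.5, 6 and 24 hr, and the ratio without this step is called as deposited. The ratios also moved with base composition. Over 20 bins of transcript GC content, the bin medians ran from 0.99 in the poorest bin to -1.19 in the richest at 1.5 hr and from 0.92 to -1.07 at 24 hr, and at 6 hr they lay between 0.66 and -0.25. A change measured against genes of like GC is therefore printed where it differs, and this correction was added after the data were seen. All 6 known TNF targets checked were higher at every time, by 2.41 (Sod2) to 6.17 (Ccl2) on the log2 scale at 1.5 hr, 1.92 to 5.47 at 6 hr and 1.84 to 6.08 at 24 hr. All 10 fibroblast markers were above 0 in every library.

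On the mm9 build, C3 (chr17:57343397-57367559), C4b (chr17:34865325-34880827) and Cfb (chr17:34993319-34999463) lie on chromosome 17, the last pair in one neighbourhood. C1ra (chr6:124462650-124473458) and C1s (chr6:124480363-124492339) are neighbours on chromosome 6. Serping1 (chr2:84605544-84615561) and Cd59a (chr2:103935958-103955511) lie on chromosome 2 and Cd55 (chr1:132335604-132359321) on chromosome 1.

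The means of the 8 complement genes over the 4 libraries ran from 5.28 units (C4b) to 90.0 units (C1s), and 0 of 8 passed the floor. Ranked among all genes of a library, their levels lay between the percentiles 31.8 (C4b at 24 hr) and 80.1 (C1s at 24 hr). In untreated cells the order of levels was Serping1 (61.7 units), C1s (54.6), C1ra (47.8), Cfb (32.4), Cd59a (26.8), Cd55 (20.9), C4b (10.8) and C3 (4.50). Neighbours in this order whose counting intervals overlapped were Serping1 and C1s, C1s and C1ra, Cfb and Cd59a, and Cd59a and Cd55. After 24 hr the order was C1s (178 units), C1ra (97.5), Serping1 (81.3), C3 (69.5), Cd55 (44.1), Cd59a (41.4), Cfb (37.4) and C4b (1.01). The counting intervals of C1ra and Serping1, of Serping1 and C3, of Cd55 and Cd59a and of Cd59a and Cfb overlapped. C3 thus went from the lowest place to the fourth, and C4b took the last one.

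**Figure D1:**
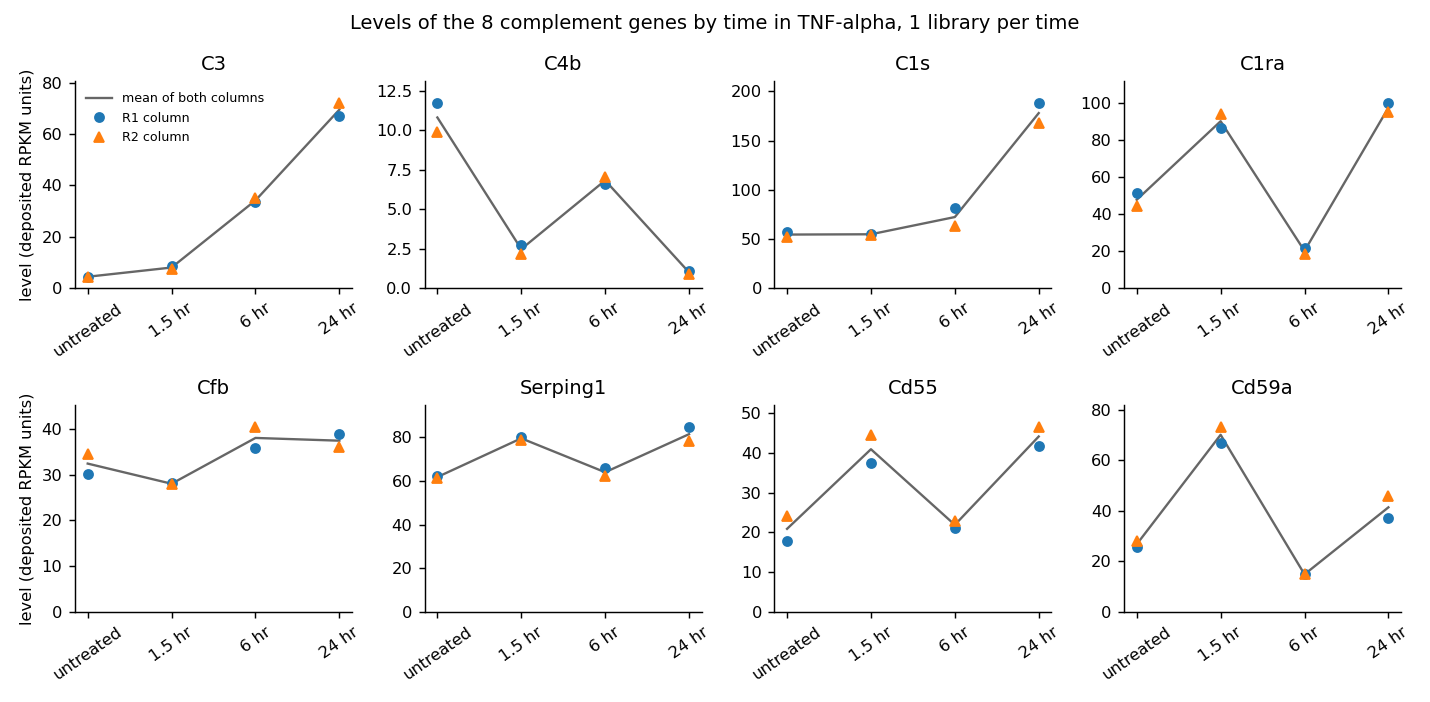
Levels of the 8 complement genes (y axis, deposited RPKM units, starting at 0 and with its own range per gene) in the untreated library and after 1.5, 6 and 24 hr of TNF-alpha. Circles and triangles are the R1 and R2 columns of the 1 library per time and the line is their mean. C3 reached 69.5 units at 24 hr from 4.50 units untreated, and C4b went from 10.8 to 1.01 units.

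C3, the central component whose cleavage releases the opsonin C3b and the anaphylatoxin C3a, was higher late in the time course. Its level was 4.50 units untreated (24 reads), 8.09 units at 1.5 hr (46 reads), 34.2 units at 6 hr (163 reads) and 69.5 units at 24 hr (445 reads). The 6 and 24 hr libraries stood far above the first pair. Relative to the median gene the log2 change was 0.41 at 1.5 hr (interval -0.29 to 1.22), 3.66 at 6 hr (3.06 to 4.37, 12.6-fold) and 3.85 at 24 hr (3.29 to 4.54, 14.5-fold). As deposited, C3 was 7.59-fold higher at 6 hr and 15.4-fold higher at 24 hr. Between 6 and 24 hr it differed by 0.19, with an interval of -0.07 to 0.46 that includes no change. Against genes of like GC the changes at 6 and 24 hr were 3.72 and 3.88. Among genes with a mean level of 5 to 100 units, the range of the 8 genes and a choice made after seeing them, the change of C3 lay at the percentile 99.5 at 6 hr and 99.6 at 24 hr.

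C4b encodes C4, which C1s cleaves to build the C3 convertase of the classical pathway. Its level was 10.8 units untreated (62 reads), 2.48 units at 1.5 hr (15 reads), 6.82 units at 6 hr (34 reads) and 1.01 units at 24 hr (7 reads). The untreated and 6 hr libraries were high and the 1.5 and 24 hr libraries low. The log2 change was -2.55 at 1.5 hr (-3.46 to -1.71), 0.07 at 6 hr (-0.59 to 0.68) and -3.51 at 24 hr (-4.85 to -2.35). As deposited it was -2.12, -0.66 and -3.42, so the value near 0 at 6 hr depends on centring. C4b is rich in GC (55.3%), and genes that rich were also lower at 1.5 and 24 hr. Against genes of like GC its change was -2.20, 0.23 and -3.25 at the 3 times, so the difference at 1.5 and 24 hr remained. Among genes at that level its change lay at the percentile 3.96 at 1.5 hr and 1.25 at 24 hr.

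The C1 proteases differed from each other. C1s, the protease that cleaves C4 and C2, had 54.6 units untreated (167 reads), 54.9 units at 1.5 hr (176 reads), 72.4 units at 6 hr (194 reads) and 178 units at 24 hr (643 reads). The 24 hr library alone stood well above the rest in deposited units. The log2 change of C1s was -0.42 at 1.5 hr (-0.73 to -0.10), 1.14 at 6 hr (0.83 to 1.45) and 1.61 at 24 hr (1.37 to 1.87). As deposited it was 0.01, 0.41 and 1.71, so the 2-fold difference at 6 hr depends on the step that centres the libraries. Against genes of like GC the values were -1.01, 0.94 and 1.08.

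C1ra encodes the mouse C1r that activates C1s. Its level was 47.8 units untreated (139 reads), 90.2 units at 1.5 hr (274 reads), 20.2 units at 6 hr (52 reads) and 97.5 units at 24 hr (334 reads), so that high and low libraries alternated. The log2 change was 0.49 at 1.5 hr (0.19 to 0.79), -0.51 at 6 hr (-0.99 to -0.03) and 0.93 at 24 hr (0.64 to 1.23). None of these reached 2-fold, whereas as deposited the change was -1.24 at 6 hr and 1.03 at 24 hr. Between 6 and 24 hr C1ra differed by 1.44 (1.01 to 1.88) and C1s by 0.47 (0.24 to 0.72).

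Cfb encodes factor B, the serine protease of the alternative pathway C3 convertase. Its level was 32.4 units untreated (94 reads), 28.0 units at 1.5 hr (85 reads), 38.0 units at 6 hr (97 reads) and 37.4 units at 24 hr (128 reads). In deposited units the 4 libraries lay within a narrow range. Centred, its log2 change was -0.64 at 1.5 hr (-1.08 to -0.20), 0.97 at 6 hr (0.54 to 1.39) and 0.12 at 24 hr (-0.28 to 0.52), whereas as deposited it was -0.21, 0.23 and 0.21. From 6 to 24 hr the log2 ratio of Cfb was -0.85 (-1.24 to -0.46), while that of C3 was 0.19.

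None of the 3 regulators reached 2-fold at any time relative to the median gene. Serping1, the C1 inhibitor that inactivates C1r and C1s, had 61.7 units untreated (118 reads), 79.4 units at 1.5 hr (159 reads), 63.9 units at 6 hr (108 reads) and 81.3 units at 24 hr (184 reads). Its log2 change was -0.07 at 1.5 hr (-0.41 to 0.30), 0.79 at 6 hr (0.40 to 1.18) and 0.30 at 24 hr (-0.03 to 0.66). As deposited the values were 0.36, 0.05 and 0.40. The value at 6 hr thus depends on centring, and no interval was computed for the ratio as deposited.

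Cd55, or decay-accelerating factor, dissociates C3 convertases on the cell's own surface. It had 20.9 units untreated (56 reads), 40.9 units at 1.5 hr (114 reads), 21.9 units at 6 hr (51 reads) and 44.1 units at 24 hr (138 reads). The untreated and 6 hr libraries were alike and the 1.5 and 24 hr libraries about equally higher. The log2 change was 0.54 at 1.5 hr (0.06 to 1.02), 0.80 at 6 hr (0.21 to 1.36) and 0.98 at 24 hr (0.51 to 1.45). As deposited it was 0.97, 0.07 and 1.08, so the value at 6 hr depends on centring. At 24 hr other scalings put Cd55 just past 2-fold. It was 1.14 when scaled to the sum, 1.06 with a trimmed mean and 1.02 with the median of ratios. Its transcript is the poorest in GC of the 8 (40.4%), and against genes of like GC the changes were -0.45, 0.15 and 0.07. The higher values of Cd55 were thus of the size seen in other genes poor in GC, whose poorest bin had medians of 0.99, 0.66 and 0.92.

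Cd59a encodes a surface protein that blocks assembly of the membrane attack complex. It had 26.8 units untreated (48 reads), 70.1 units at 1.5 hr (130 reads), 14.9 units at 6 hr (23 reads) and 41.4 units at 24 hr (87 reads), highest at 1.5 hr and lowest at 6 hr. The log2 change was 0.96 at 1.5 hr (0.46 to 1.46), -0.11 at 6 hr (-0.92 to 0.61) and 0.54 at 24 hr (0.00 to 1.07). As deposited it was 1.39, -0.84 and 0.63, and against genes of like GC it was 0.20, -0.47 and -0.13. At 1.5 hr Cd59a thus lay close to 2-fold relative to the median gene, and other scalings put it on either side, at 1.14 when libraries were scaled to their sums, 1.03 with a trimmed mean and 0.98 with the median of ratios.

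**Figure D2:**
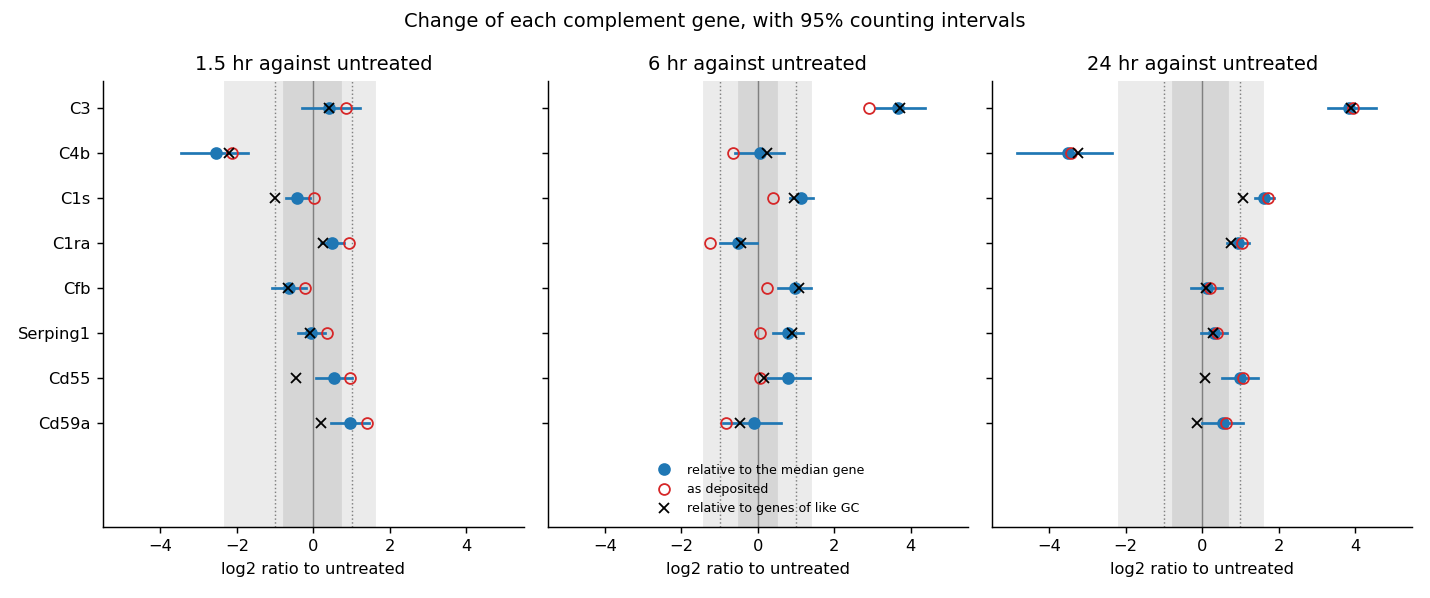
Log2 ratio to untreated (x axis) of each complement gene at 1.5, 6 and 24 hr. Filled circles are relative to the median gene with 95% counting intervals, open circles as deposited and crosses relative to genes of like GC. Dark and pale grey bands hold the middle 50% and 90% of genes with a mean level of 5 to 100 units, and dotted lines mark 2-fold. C3 lies at 3.66 and 3.85 at 6 and 24 hr, and C4b at -2.55 and -3.51 at 1.5 and 24 hr.

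Counted at 2-fold relative to the median gene, 0 of 8 complement genes were higher and 1 (C4b) was lower at 1.5 hr. At that time 16.3% of genes above the floor were higher and 17.6% lower, and among genes at their level 16.8% were higher and 20.8% lower. At 6 hr 2 of 8 were higher (C3 and C1s) and 0 lower, beside 7.47% higher and 3.52% lower above the floor, and 10.3% and 11.4% at their level. At 24 hr 2 of 8 were higher (C3 and C1s) and 1 lower (C4b), beside 14.7% higher and 15.7% lower above the floor, and 14.4% and 20.0% at their level. The counts at 1.5 and 24 hr lie near these backgrounds. The count of higher genes at 6 hr lies above its background with 2 genes, of which C1s passed 2-fold only after centring. Against genes of like GC the 2 genes were C3 and Cfb (1.07), with C1s at 0.94, so that C1s and Cfb lay close to the threshold. As deposited the counts were 1 higher (Cd59a) and 1 lower (C4b) at 1.5 hr, 1 higher (C3) and 1 lower (C1ra) at 6 hr, and 4 higher (C3, C1s, C1ra and Cd55) and 1 lower (C4b) at 24 hr. The shares of genes above the floor were then 29.8% higher and 8.51% lower at 1.5 hr. They were 1.87% and 31.4% at 6 hr and 17.0% and 13.4% at 24 hr. The median change of the 8 genes was 0.17, 0.79 and 0.74 at 1.5, 6 and 24 hr, against 0.05, 0.00 and 0.03 for genes at their level. Measured against genes of like GC, the medians were -0.27, 0.56 and 0.20, with the opposite sign at 1.5 hr.

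**Figure D3:**
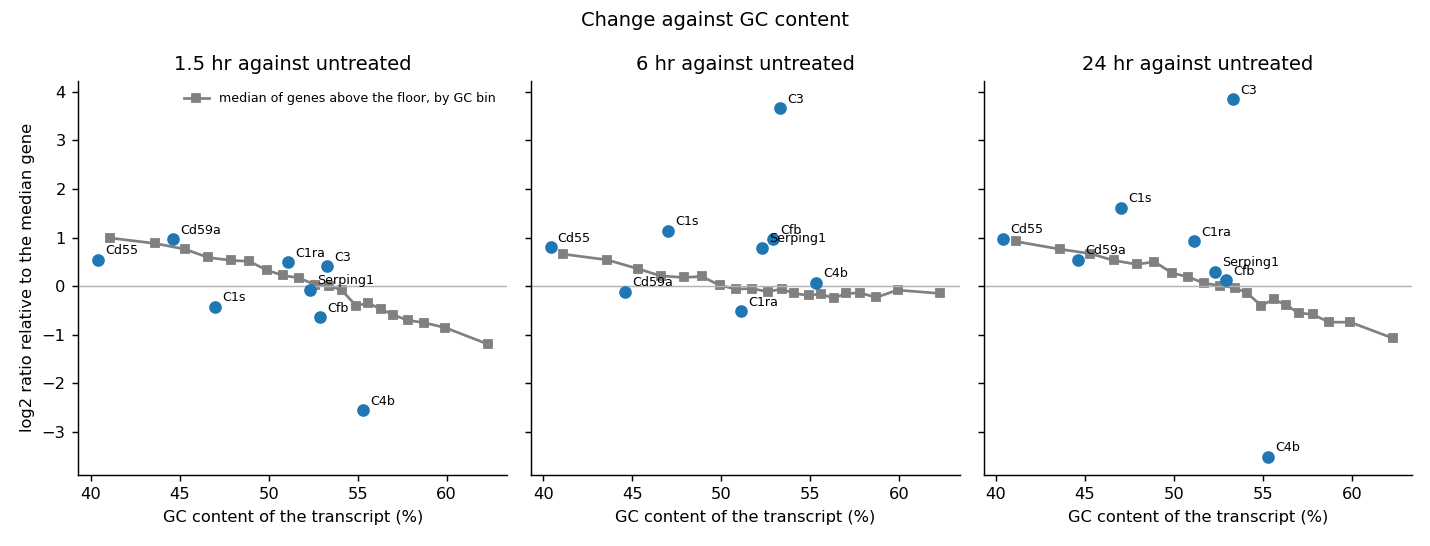
Log2 ratio relative to the median gene (y axis) against GC content of the transcript (x axis, percent) at 1.5, 6 and 24 hr. Grey squares are medians of genes above the floor in 20 GC bins and blue points the 8 complement genes. Measured from the grey bins, Cd55 and Cd59a lie between -0.47 and 0.20, C3 lies at 3.72 and 3.88 at 6 and 24 hr, and C4b at -2.20 and -3.25 at 1.5 and 24 hr.

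Several of the genes have a related gene in the genome that shares stretches of identical sequence, and reads from these stretches could be split between both. Of the 50-base windows of the transcript, 47.5% of C1ra also occur in C1rb, 35.2% of C4b in C4a, 24.3% of C1s in Gm5077, 13.3% of Cd55 in Daf2 and 0.487% of Cd59a in Cd59b. With windows of 41 bases, the coverage of 1 read, the shares were larger, at 51.6%, 41.2%, 29.6%, 15.1% and 1.03% in the same order. C4a had log2 changes of -2.24, 0.52 and -2.63 at 1.5, 6 and 24 hr, C1rb had 0.64, -0.61 and 1.20, and Gm5077 had -0.45, 1.21 and 1.64. Each point value had the sign of its partner at all 3 times. The counting intervals of C4b at 6 hr (-0.59 to 0.68), C1rb at 6 hr (-1.36 to 0.03) and Gm5077 at 1.5 hr (-0.96 to 0.07) included no change. The sign is not settled in these cases. Some signs also depend on centring. As deposited, C1s and Gm5077 at 1.5 hr were at 0.01 and -0.02, on opposite sides of 0. As deposited, C4b and C4a at 6 hr were at -0.66 and -0.22, both below 0. Daf2 had -0.10, 0.47 and 0.23, from 18 to 37 reads a library, and Cd59b had at most 9 reads in a library. Against genes of like GC, Daf2 was at -0.98, -0.07 and -0.54 and Gm5077 at -0.98, 1.03 and 1.19. Because of the shared windows, the values of such a pair are not fully separate measurements. On the mm9 annotation Cfb also shares 2246 exonic bases with the overlapping gene Gm20547 on the same strand, and C1s shares 576 bases with Gm16567 on the opposite strand.

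**Figure D4:**
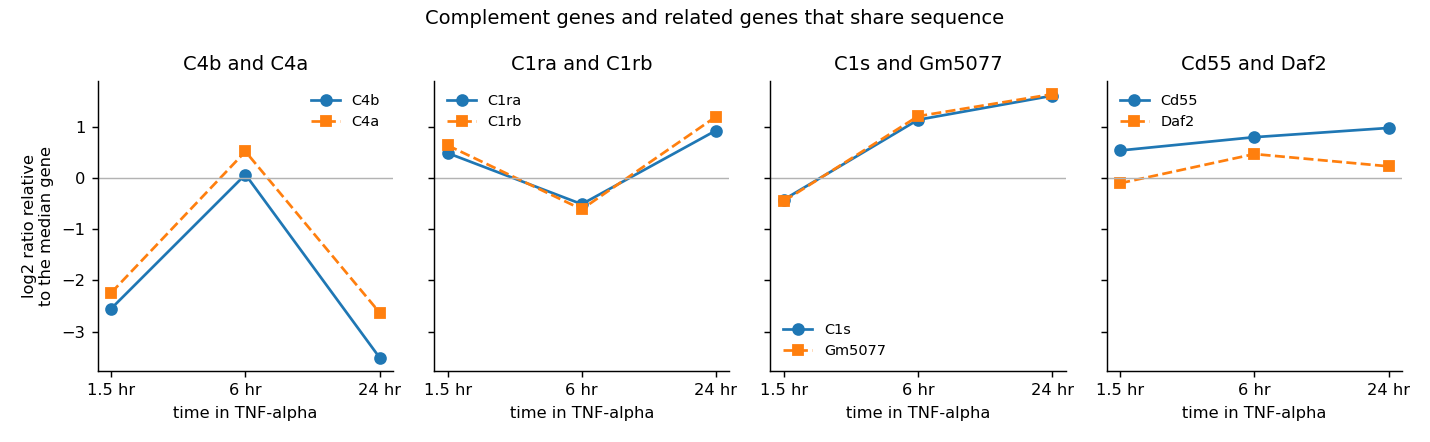
Log2 ratio to untreated relative to the median gene (y axis) at 1.5, 6 and 24 hr for 4 complement genes (circles) and the related genes that share sequence with them (squares). At 24 hr C4b and C4a lie at -3.51 and -2.63, and C1s and Gm5077 at 1.61 and 1.64.

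H3K4me3 in untreated cells was a readout that the choice of the genes did not use. A peak lay within 1 kb of an annotated coding start for 2 of 8 genes, Cd55 and Cd59a, and both peaks covered the start itself. Such a peak was present at 92.2% of genes above the floor, 72.4% of genes with a mean level of 5 to 100 units and 0.768% of genes listed at 0 in all libraries. The Cd55 peak (mm9, chr1:132358522-132360153) was 1632 bases long with 511 tags and 76.8-fold enrichment. The Cd59a peak (chr2:103935521-103937212) was 1692 bases long with 244 tags and 50.1-fold enrichment. Both were small, since the median listed peak had 1049 tags and 3187 bases, and their tag counts lay at the percentiles 16.2 and 5.32.

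The other 6 genes had no listed peak within 5 kb of a coding start, and the list holds no peak under 20.0-fold enrichment. For these genes the nearest peak lay at the starts of other genes. For Cfb it was 5928 bases from the nearest annotated start, at Rdbp and Skiv2l, and 10304 bases from the start of the transcript placed above. It was 17886 bases from C3, at Gpr108 and Trip10, and 22437 bases from Serping1, at Ube2l6. For C1s it was 25013 bases from the nearest annotated start, at Lpcat3, and 119672 bases from the start of the transcript placed above. It was 91362 bases from C4b, at Dom3z and Stk19, and 95579 bases from C1ra, at Pex5. The 3 genes with the highest untreated levels, Serping1, C1s and C1ra, were thus without a listed peak, while Cd55 and Cd59a, with lower levels, had one.

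Of 47 other complement genes listed by pathway, 44 were in the table, 7 of them at 0 in every library and 23 with a mean under 5 units. The terminal pathway was low, with the means of all 6 of its genes in the table under 5 units and 3 of them at 0 in every library. Its highest gene, C8g, had 10.8, 3.39, 1.07 and 3.06 units in the untreated, 1.5, 6 and 24 hr libraries. Only 4 genes passed the floor: the 3 chains of C1q, the recognition unit of the classical pathway, and Cfp, which encodes properdin, the stabiliser of the alternative convertase. C1qa had 4324, 2267, 889 and 766 units in the untreated, 1.5, 6 and 24 hr libraries, C1qb had 6209, 4631, 1941 and 1509 units, C1qc had 728, 1434, 235 and 415 units, and Cfp had 382, 210, 273 and 313 units. C1qa and C1qb were lower at every later time than untreated. The log2 change at 24 hr was -2.59 for C1qa, -2.13 for C1qb, -0.91 for C1qc and -0.38 for Cfp. At 2-fold relative to the median gene, 0 of these 4 were higher at any time, 2 were lower at 1.5 hr (C1qa and Cfp), 1 at 6 hr (C1qa) and 2 at 24 hr (C1qa and C1qb). Against genes of like GC, C1qc was past 2-fold higher and none of the 4 past 2-fold lower at 1.5 hr, and the changes at 24 hr were -1.85 for C1qa, -1.59 for C1qb, -0.33 for C1qc and 0.01 for Cfp.

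C1q is made mainly by macrophages, and leukocyte markers were present in these cultures. All 7 leukocyte and macrophage markers in the table were above 0 in every library, with summed levels of 3300 units untreated, 16462 at 1.5 hr, 3205 at 6 hr and 8106 at 24 hr. Most of this sum was Lyz2, at 2257, 14668, 2692 and 7187 units. Csf1r, the macrophage growth factor receptor, had 295, 287, 90.1 and 124 units, and Cd68 had 605, 823, 202 and 312 units. The 10 fibroblast markers summed to 90923, 89870, 43326 and 55164 units. These sums are not scaled, and the 6 hr library summed over all genes to 0.548 of untreated. As a percent of that library sum, the fibroblast markers made up 1.26, 1.05, 1.10 and 0.801. The leukocyte markers made up 0.0458, 0.192, 0.0811 and 0.118 percent. The 4 endothelial, 4 epithelial and 4 hepatocyte markers summed to at most 5.04, 3.54 and 1.44 units in a library. In bulk RNA, fewer cells of a type and less RNA per cell cannot be told apart, and which cells the 8 complement genes came from was not tested.

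**Figure D5:**
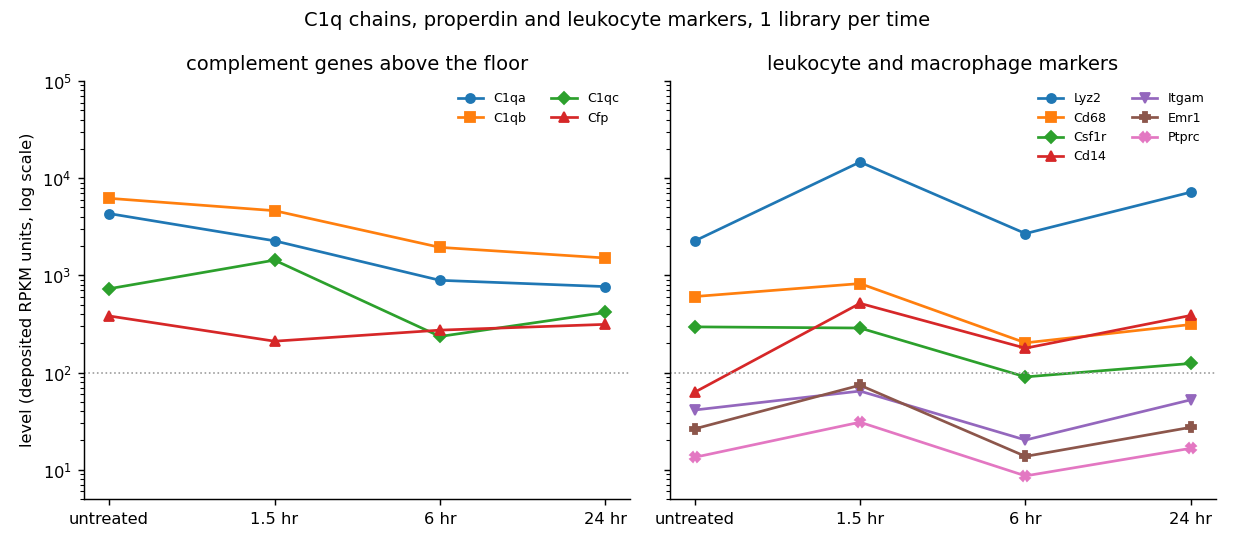
Levels (y axis, deposited RPKM units, log scale) in the untreated, 1.5, 6 and 24 hr libraries of the 4 other complement genes above the floor (left) and of 7 leukocyte and macrophage markers (right), with the floor of 100 units dotted. C1qa went from 4324 to 766 units while Lyz2 was highest, at 14668 units, at 1.5 hr.

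The genes above the floor with the most similar changes over the 3 times, by Euclidean distance of the log2 changes over the 3 later libraries, differed from gene to gene. For C3 they were Mmp3, Mmp9 and Il2rg, all at a distance of 1.64 or more, so that no gene above the floor was close to it. For C4b they were Podxl2, Mir409 and H1fx (0.66 to 0.72), and for C1s Ghdc, Ext1 and Ecscr (0.75 to 0.89). For C1ra they were Mrpl42, Nit1 and Mrpl14 (0.25 to 0.26), for Cfb Etv4, Adamts14 and Syde1 (0.16 to 0.22), and for Serping1 Nop56, Sltm and Elk3 (0.15 to 0.20). For Cd55 they were Fbxo22, Ndfip1 and G3bp1 (0.09 to 0.11) and for Cd59a Oxct1, Ddb1 and Igf2 (0.03 to 0.10).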

How the data were processed

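RNA-seq was measured in 4 libraries of MEFs and H3K4me3 ChIP-seq in 1 library with 1 input. The authors mapped poly-A, paired-end, directional reads to mm9 with TopHat and deposited RPKM values per RefSeq transcript from a script of their own, as 2 columns per library that are not explained. The columns were assigned to times through the names in the study's list of sequencing depths. Bowtie and MACS gave the peaks, deposited with tag counts, a score made from the log10 of the p-value, fold enrichment ratios, a percent FDR and a tag signal per base. The GEO entry of the 24 hr RNA library carries the text of the chromatin protocol, and its column was used as RNA.

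The R1 and R2 columns were averaged, 1 row was kept per gene (27794 rows, 21837 genes) and log2 ratios to untreated were centred on the median of the 6251 genes whose mean exceeded 100 units. No pseudocount was added. Of 1826 rows with low values, 99.8% were whole bases of coverage (tolerance 0.01 bases), with 41 bases for 1 read, which gave the reads of each gene and exact Clopper-Pearson (95%) intervals of ratios and exact Poisson intervals of levels. The depth of the columns relative to the first lay between 0.857 and 1.19. The squared difference between R1 and R2, scaled to 1 for independent counts, was 0.321. With 1 library per time no test was made. GENCODE vM1 (mm9) gave start sites, shared windows and GC content (95.3% of genes above the floor), and python (pandas 2.3.3, scipy 1.17.1) did the calculations. Alternatives were other scalings, columns, pseudocounts, floors, thresholds, summed rows and GC-bin centring.

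The text names the 8 complement genes, the listed complement genes above the floor, 6 TNF targets, marker genes and the 3 nearest genes by pattern. The genes and lists were chosen with earlier results of these data known.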

Additional observations from a re-analysis of the deposited data

Results flagged for a closer look

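For 3 of the complement genes the log2 change relative to the median gene had opposite signs at a pair of times, in both columns of each library and with each counting interval on its own side of 0. C1s stood at -0.42 at 1.5 hr against 1.14 at 6 hr and 1.61 at 24 hr. C1ra stood at 0.49 at 1.5 hr and 0.93 at 24 hr against -0.51 at 6 hr. Cfb stood at -0.64 at 1.5 hr against 0.97 at 6 hr. The differences between times were not tested, since each time has 1 library. Against genes of like GC the signs were kept, at -1.01, 0.94 and 1.08 for C1s, 0.26, -0.45 and 0.75 for C1ra, and -0.67, 1.07 and 0.10 for Cfb at 1.5, 6 and 24 hr. As deposited, C1s was at 0.01, 0.41 and 1.71 and so showed no opposite signs. Cfb was at -0.21 at 1.5 hr and 0.23 at 6 hr as deposited. The counting intervals of its levels at these times, 22.4 to 34.6 and 30.8 to 46.4 units, overlapped that of untreated, 26.2 to 39.6 units. C1ra kept its opposite signs as deposited, at 0.92, -1.24 and 1.03. Intervals of changes were computed relative to the median gene only, not as deposited or against genes of like GC.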

How the results depend on the processing

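No paired analysis was possible because each time has 1 library and no comparison has a test. For single genes, 278 of the recomputed changes stayed within the counting interval and 34 moved outside it. Reversal of sign was checked only for changes of at least 2-fold, and none of these reversed. Some smaller changes did change sign. Cd55 at 1.5 hr went from 0.54 to -0.45 with GC-bin centring, and C1ra at 6 hr from -0.51 to 0.18 with a pseudocount of 100. Of the 34, 13 came with a pseudocount of 100, 10 as deposited, 7 with GC-bin centring and 4 with a pseudocount of 10. The R1 and R2 columns alone, summed rows, a pseudocount of 10, median of ratios and both columns past 2-fold kept every count of complement genes and every background share within 1.5 times. The 2 genes with a peak stayed 2 under all 4 alternatives. The changes that follow are of counts or background shares by over 1.5 times. Background shares that moved less are also given beside some counts. The cause of the changes was not tested except where the setting itself alters the threshold or the genes counted.

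The median change of the 8 genes at 1.5 hr had no stable sign, at 0.60 as deposited, -0.10 and -0.22 with pseudocounts of 10 and 100 and -0.27 with GC-bin centring. Cfb at 6 hr passed 2-fold when scaled to the sum (1.10), with the median of ratios (1.04), with no floor (1.03) and with GC-bin centring (1.07). As deposited, the median of the 8 genes at 6 hr was 0.06, higher genes numbered 1 at 1.5 hr, 1 at 6 hr and 4 at 24 hr and lower ones 1 at 6 hr, and other complement genes that were lower numbered 0 at 1.5 hr and 3 at 6 hr. The background was then 29.8% higher and 8.51% lower at 1.5 hr and 1.87% higher and 31.4% lower at 6 hr. At 24 hr it was 17.0% higher and 13.4% lower. Scaled to the sum, 1 gene was higher at 1.5 hr and 4 at 24 hr, beside 21.8% and 18.6% of genes above the floor. With that scaling 1.90% of genes were lower at 6 hr. The trimmed mean also gave 1 and 4 higher genes, beside 18.4% and 16.4%. With a pseudocount of 100, which shrinks changes of genes this low, 0 of the 8 genes were lower at 1.5 hr, higher at 6 hr, or higher or lower at 24 hr, and the median at 24 hr was 0.14. Other complement genes that were lower then numbered 1 at 1.5 hr and 2 at 6 hr, and the background was 7.66% higher and 10.3% lower at 1.5 hr, 2.34% higher and 2.34% lower at 6 hr, and 6.49% higher and 8.80% lower at 24 hr. With GC-bin centring, added after seeing the data, the median at 24 hr was 0.20, 2 of the 8 genes were lower at 1.5 hr (C1s and C4b), 1 other complement gene was higher and 0 lower at 1.5 hr, and the background was 10.8% higher and 10.5% lower at 1.5 hr, 4.95% higher at 6 hr and 9.05% lower at 24 hr.

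A floor of 50 gave 1 other complement gene higher at 1.5 hr, 2 lower at 6 hr, and 1 higher and 4 lower at 24 hr. The background was then 15.5% higher at 1.5 hr, 3.84% lower at 6 hr, and 13.8% higher and 15.7% lower at 24 hr. A floor of 200 gave 1 of the 8 genes higher at 1.5 hr, beside 17.4% of genes above that floor. With no floor 1 of the 8 was higher at 1.5 hr and 4 at 24 hr. Other complement genes, 44 in the table with 7 of them at 0, numbered 11 higher and 8 lower at 1.5 hr. They numbered 5 and 11 at 6 hr and 9 and 9 at 24 hr. The background with no floor was 19.7% higher and 23.4% lower at 1.5 hr. It was 12.2% and 15.8% at 6 hr and 17.9% and 22.5% at 24 hr. At a mean of 5 or more, added later, other complement genes numbered 3 higher and 5 lower at 1.5 hr, 1 and 3 at 6 hr, and 3 and 8 at 24 hr, and genes at the level of the 8 gave 11.4% lower at 6 hr. At 1.5-fold, 1 of the 8 was higher and 2 lower at 1.5 hr, 5 higher at 6 hr and 4 higher at 24 hr, 3 other complement genes were lower at 6 hr, and the background was 29.1% higher and 29.6% lower, 17.6% and 14.5%, and 27.7% and 27.8% at the 3 times. At 3-fold, 1 of the 8 was higher at 6 hr, 0 other complement genes were lower at 1.5 hr or 6 hr, and the background was 4.98% and 6.18%, 2.29% and 0.320%, and 4.32% and 5.20%. Depth limits C4b most, whose change at 24 hr rests on 7 reads.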

Other observations

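Among complement genes below the floor, 2 were singled out after their values were seen. Masp2, a protease of the lectin pathway, had 89.6, 15.8, 77.4 and 23.1 units in the untreated, 1.5, 6 and 24 hr libraries. Its log2 changes were -2.93, 0.52 and -2.05, and against genes of like GC they were -3.46, 0.35 and -2.50, so that Masp2 was low in the same libraries as C4b. Cr1l, a membrane regulator of C3 convertases in rodents, had 149 and 127 units at 1.5 and 24 hr and 52.6 untreated, with its lowest level at 6 hr. Its log2 changes were 1.08, 0.66 and 1.18, and against genes of like GC they were 0.32, 0.31 and 0.51. The anaphylatoxin receptors C3ar1 and C5ar1, which bind C3a and C5a, had 45.0, 101, 15.8 and 23.3 units and 63.4, 149, 29.4 and 55.3 units. Both were highest at 1.5 hr. Their log2 changes were 0.73, -0.77 and -1.04 for C3ar1 and 0.80, -0.38 and -0.29 for C5ar1. The summed leukocyte markers were also highest at 1.5 hr, mostly through Lyz2. Single leukocyte markers differed at that time, with log2 changes from -0.47 (Csf1r) to 2.61 (Cd14). A link between the receptors and these markers was not tested.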
